A study of Homo sapiens with 40 samples.

Results

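Among the exons measured by RASL-seq in the 3 polymerase mutants, 654 of 2456 had no matching row in the RNA-seq exon tables. A row was counted as matching when its chromosome, start, end, strand, gene identifier and exon position were all the same, and the union of the 3 RASL-seq tables was used. These 654 rows covered 643 distinct exons in 574 genes, of which 566 had a gene symbol. The other 1802 RASL-seq rows had an RNA-seq row and served as the comparison. The rule itself read no RASL-seq level or change. Measured RNA-seq values, WT levels among them, may have entered it through the RNA-seq lists. The absence of a row says only that the authors' RNA-seq tables do not list the event. How the events in those lists were filtered is not given in the labels or the file headers.

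The cells were HEK293 Flp-in T-REx, a human embryonic kidney line built so that a transgene sits at a fixed genomic site and is switched on by doxycycline. The transgene was Rpb1, the largest subunit of RNA polymerase II, in an α-amanitin resistant form that was WT or carried the substitution R749H, H1106Y or E1126G. All 4 genotypes, WT included, received doxycycline for 12 to 16 h and then α-amanitin for 42 h, a toxin that blocks the cells' own polymerase. RASL-seq had 3 libraries per genotype, and RNA-seq had 2 libraries each for WT, R749H and E1126G. The deposited exon tables give 1 WT level and 1 change per event, with no value per library, so no replicate spread can be shown. How the libraries were combined is not stated in the labels or headers. The read depth behind each event is not given. All 3 comparisons use the same WT libraries. The values of the 3 mutants are therefore set side by side and are not independent of each other.

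Splicing takes place largely while the RNA is being made, so the speed of the polymerase sets how long a splice site waits before a competing site downstream is transcribed. R749H and H1106Y are known as slow forms of the polymerase and E1126G as a fast form. A cassette exon is an exon that can be kept in the messenger RNA or skipped together with the introns on both sides. RASL-seq reads such events with pairs of DNA probes that anneal to polyadenylated RNA on either side of a chosen splice junction and are ligated when both are bound. It therefore measures a designed panel of junctions, while RNA-seq has to cover a junction by chance with random fragments. In what follows, inclusion is the share of the included form among included and skipped forms, computed from the ratio in the authors' deposited table. The skipped span is the distance between the flanking exons, and coordinates are on GRCh37.

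The 654 exons fell into 4 kinds by what the RNA-seq tables did list. For 261 of them (39.9%) the gene was not listed at all. For 345 (52.8%) the gene was listed through other exons, with neither this exon nor this span. For 33 (5.05%) the same exon was listed with another span or another gene identifier. For 15 (2.29%) the same span was listed with another exon inside it. The gene was thus present in the RNA-seq tables for 393 of the 654 (60.1%).

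In WT cells these exons lay nearer to the ends of the inclusion scale than the others. WT inclusion was over 95% for 234 of the 654 (35.8%) and under 5% for 114 (17.4%). The remaining 306 (46.8%) lay from 5% to 95%. Among the 1802 others the corresponding shares were 21.1%, 13.5% and 65.3%. The median WT inclusion was 82.6% for the exons without an RNA-seq row, with quartiles at 13.88% and 97.87%. For the others it was 61.25%, with quartiles at 16.71% and 92.71%. The kinds differed in level. The median was 91.72% where the gene was listed through other exons, 74.79% where the gene was not listed, and 3.81% where the same span was listed with another exon.

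**Figure D1:**
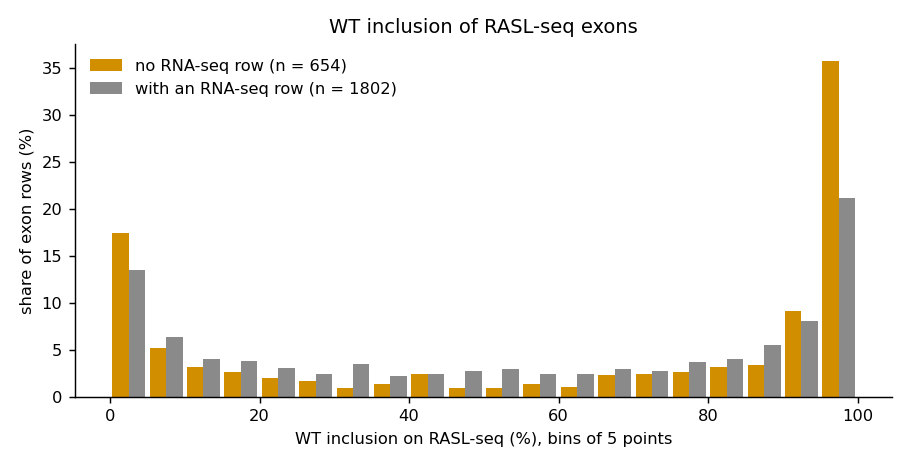
WT inclusion on RASL-seq (x axis, percent, in bins of 5 points) against the share of exon rows in each bin (y axis, percent), for the 654 exons without an RNA-seq row and the 1802 with one. The top bin holds 35.8% of the first and 21.1% of the second.

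Exon length did not separate the 2 sets, with a median of 98 nt in each. The members ran from 21 to 3426 nt, with 15 exons of 27 nt or less (microexons) and 28 of 300 nt or more. A length divisible by 3, which keeps the reading frame when a coding exon is skipped, was found for 337 of the 654 (51.5%) and for 57.4% of the others. The skipped span was longer, at a median of 11822.5 nt against 7099 nt. Spans over 20 kb made up 221 of the 654 (33.8%) and 19.9% of the others. The members were also listed less completely. All 3 RASL-seq tables held 409 of them (62.5%) and 84.2% of the others, so the per-mutant counts below rest on 542 members for R749H, 478 for H1106Y and 583 for E1126G.

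An event was called when its deposited p-value, adjusted by Benjamini-Hochberg over all events of that table, was under 0.05. The stricter Benjamini-Yekutieli adjustment, which makes no assumption about dependence between events, multiplies that value by 8.21 to 8.32. Calls with an adjusted p above 0.006 in R749H and E1126G, or above 0.0061 in H1106Y, were therefore lost with it. At least 1 mutant gave a call for 415 of the 654 members (63.5%) and for 1375 of the 1802 others (76.3%). No mutant gave a call for 239 members. The standard error implied by each deposited p-value and log2 change was larger for the members. Its median was 0.524 against 0.317 log2 units for R749H, 0.515 against 0.315 for H1106Y and 0.480 against 0.268 for E1126G. Large log2 changes were not rarer among the members. A log2 change of the ratio of at least 1 in either direction was found for 41.7% of members and 35.2% of the others in R749H. The same shares were 59.6% and 55.2% in H1106Y, and 37.0% and 35.7% in E1126G. Called changes of at least 10 percentage points were rarer among the members. Their shares were 11.4% against 18.4% of the others in R749H, 25.1% against 35.2% in H1106Y and 11.3% against 20.1% in E1126G. The part of the wider error in the share of large log2 changes and in the lower share of calls was not tested. Nor was the part of WT inclusion in the share of 10-point changes.

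In R749H cells the members moved in both directions. Inclusion rose for 106 and fell for 94 of the 542 listed, which is 200 called (36.9%). Over all 2248 events of R749H, 44.1% were called, 24% higher and 20.1% lower, so the members' share was below the background in both directions. The median log2 change was 0.04 for members and 0.05 for all events. A called change of at least 10 percentage points was found for 62 members (11.4%), against a background of 16.7% of all events. With WT inclusion from 5% to 95%, 99 of 265 members (37.4%) and 46.3% of all events were called.

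The rises in R749H were led by a 672-nt exon of PALLD, which encodes the actin-bundling protein palladin (chromosome 4, 169798874 to 169799545). Its inclusion was 17.84% in WT and 69.23% in R749H (adjusted p = 4.2e-12). A 204-nt exon of ADGRL3, an adhesion receptor of the latrophilin family, went from 42.86% to 93.33% (adjusted p = 4.5e-05). A 507-nt exon of RNF167, a ubiquitin ligase, went from 66.74% to 96.99% (adjusted p = 6.6e-11), within a span of 716 nt. RNF167 did not pass the test in the other mutants, at 63.24% in H1106Y and 73.23% in E1126G. An exon of 69 nt in ATAT1, the tubulin acetyltransferase, rose from 56.41% to 86.24% (adjusted p = 0.0004). The chromatin remodeller gene CHD5 rose from 19.05% to 63.33% for a 115-nt exon (adjusted p = 0.0032). For BAZ2A, a subunit of the nucleolar remodelling complex, a 90-nt exon rose from 19.64% to 61.54% (adjusted p = 0.012).

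The falls in R749H included several short exons. A 33-nt exon of APBA1, which encodes a presynaptic adaptor, fell from 84.68% to 50% (adjusted p = 0.00028). A 66-nt exon of NAV2, a gene of neurite outgrowth, fell from 65.47% to 31.82% (adjusted p = 1.3e-05). A 24-nt exon of RHBDL3, a rhomboid-family gene, fell from 79.31% to 50% (adjusted p = 0.036). The 69-nt exon of PROM1, the membrane protein CD133, fell from 68.66% to 38.68% (adjusted p = 0.00037). A 167-nt exon of ITSN1, an endocytic scaffold, fell from 91.63% to 62.44% (adjusted p = 8.6e-18). The largest fall was that of a 99-nt exon of FBXL13, an F-box gene, from 69.7% to 23.08% (adjusted p = 0.016). ZBED3-AS1 fell from 82.56% to 36.84% (adjusted p = 0.00014). It is an antisense gene, and the sources used here do not say whether the strand was used. TPTE2 fell from 83.33% to 55.56% (adjusted p = 0.018). It has near-identical copies elsewhere in the genome, so its value is uncertain. With the Benjamini-Yekutieli adjustment 113 members were called in R749H, without BAZ2A, FBXL13, RHBDL3 and TPTE2.

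In H1106Y cells lower inclusion was the more frequent call. Of the 478 members listed, 87 rose and 183 fell, which is 270 called (56.5%). The background over all 2070 events was 61.9% called, 23.7% higher and 38.2% lower. The members' share of falls, 38.3%, was near that of all events, and their share of rises, 18.2%, was below it. The median log2 change was -0.53 for members and -0.33 for all events. A called change of at least 10 points was found for 120 members (25.1%), against a background of 32.9%. In the WT range from 5% to 95%, 117 of 229 members (51.1%) and 63.9% of all events were called, with median log2 changes of -0.40 and -0.28.

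Of the members with WT inclusion over 95%, 95 of 184 fell in H1106Y and 17 rose. Of those under 5% in WT, 28 of 65 rose and 13 fell. The others gave 154 falls and 37 rises of 329 over 95%, and 71 rises and 33 falls of 186 under 5%, so both sets leaned the same way. PROM1 fell to 8.649% (adjusted p = 4.5e-23) and APBA1 to 30% (adjusted p = 5.9e-08). A 106-nt exon of RAB6A, a GTPase of Golgi transport (chromosome 11, 73429658 to 73429763), fell from 96.92% to 35.52% (adjusted p = 6.2e-145). The ITSN1 exon (chromosome 21, 35195791 to 35195957) fell further than in R749H, to 18.29% (adjusted p = 4.3e-111). The difference between these mutants was not tested. A 118-nt exon of the cell adhesion gene MCAM fell from 96.21% to 40.32% (adjusted p = 2.5e-12). A 173-nt exon of RUNX1T1, a transcriptional corepressor, fell from 90.85% to 35.59% (adjusted p = 8.3e-18). A 144-nt exon of PKN2, a serine/threonine kinase, fell from 62.5% to 7.407% (adjusted p = 1e-24). A 196-nt exon of CCSER2 fell from 73.21% to 14.29% (adjusted p = 1.2e-05).

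The rises in H1106Y included exons that were mostly skipped in WT. A 126-nt exon of IGF2BP3, an RNA-binding protein, rose from 39.53% to 94.04% (adjusted p = 4.6e-11) and was at 41.67% in E1126G with no call. A 213-nt exon of VAPB, a tether of the endoplasmic reticulum, rose from 8.163% to 56.09% (adjusted p = 2.3e-56). A 125-nt exon of the noncoding gene NBR2 rose from 14.31% to 57.53% (adjusted p = 9.7e-39). A 46-nt exon of TMX3, a thioredoxin-like protein of the endoplasmic reticulum, rose from 38.18% to 78.95% (adjusted p = 5e-07). A 392-nt exon of LINC00652 rose from 15.86% to 55% (adjusted p = 0.0014). BAZ2A was again at 61.54% (adjusted p = 0.031). Of the members whose span was listed in RNA-seq with another exon, 8 of 11 rose in H1106Y and 0 fell. Of these 11 rows the 2 of MYB share their values, as do the 2 of C11orf54. Their median WT inclusion was 4.225%. Rises made up 23.7% of all H1106Y events, and 99 of the 251 events under 5% in WT. The same kind of member gave 1 rise and 1 fall of 11 in R749H, and 5 rises and 1 fall of 14 in E1126G.

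In E1126G cells 57 of 583 members rose and 154 fell, which is 211 called (36.2%). Over all 2312 events 47.5% were called, 13.9% higher and 33.6% lower. The members were thus below the background in both directions, and falls outnumbered rises in the members as in all events. The median log2 change was -0.37 in both. A called change of at least 10 points was found for 66 members (11.3%), against a background of 17.9%. Within 5% to 95% in WT, 105 of 269 members (39%) and 51.7% of all events were called.

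The falls in E1126G again took in PROM1, to 16.75% (adjusted p = 9.6e-19), and APBA1, to 34.48% (adjusted p = 3.9e-10). A 33-nt exon of CACNA1C, the pore subunit of the L-type calcium channel (chromosome 12, 2757641 to 2757673), fell from 74.79% to 32.89% (adjusted p = 7.9e-25). A 51-nt exon of SLC24A2, a sodium, calcium and potassium exchanger, fell from 83.92% to 41.18% (adjusted p = 0.0014). A 54-nt exon of RGS6, a regulator of G protein signalling, fell from 81.61% to 45.16% (adjusted p = 0.0011). Neither SLC24A2 nor RGS6 was listed for the other mutants. A 91-nt exon of PRRG1 fell from 63.61% to 26.39% (adjusted p = 4.1e-09) and stayed uncalled at 55.93% in R749H and 59.04% in H1106Y. A 76-nt exon of TPM3, a tropomyosin, fell from 47.12% to 15.32% (adjusted p = 0.00028), and in H1106Y it was at 3.401% (adjusted p = 1.8e-12).

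After PALLD, at 61.76% (adjusted p = 6.9e-12), the next rise in E1126G was in C11orf54, from 26.98% to 65.43% (adjusted p = 7.1e-10). C11orf54 has 2 rows, for exons of 132 and 179 nt with a common start and the same values, so it stands for 1 measurement. A 64-nt exon of BEND6 rose from 40.7% to 73.91% (adjusted p = 0.032). A 42-nt exon of DYSF, the membrane repair protein dysferlin, rose from 10.26% to 43.75% (adjusted p = 0.026). CHD5 rose to 46.97% (adjusted p = 0.016).

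**Figure D2:**
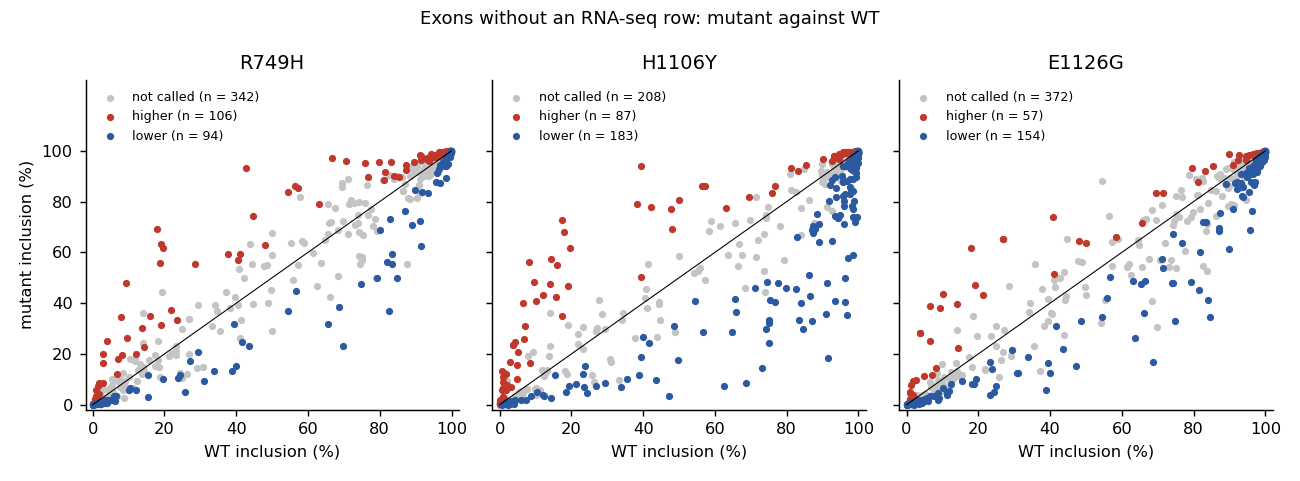
Inclusion in each mutant (y axis, percent) against WT inclusion (x axis, percent), 1 point per exon without an RNA-seq row, coloured by call, with the line of equality. In H1106Y 183 exons are called lower and 87 higher, many of the lower ones from over 95% in WT. In R749H the counts are 94 and 106, and in E1126G 154 and 57.

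Some exons were called in the same direction in every mutant. Ranked by the smallest of their 3 changes, the 6 leading rises were in PALLD, CACNA1C, OSBP2, ALG13, VAPB and TRA2A. PALLD was at 69.23%, 67.92% and 61.76% in R749H, H1106Y and E1126G, which is 51.4, 50.1 and 43.9 points above WT. An 84-nt exon of CACNA1C (chromosome 12, 2743463 to 2743546) was at 48.06% in WT and at 63.08%, 69.05% and 64.37% in the mutants. OSBP2, an oxysterol-binding protein, rose from 83.19% to 95.6%, 92.13% and 91.91% for a 185-nt exon. ALG13, an enzyme of protein glycosylation, rose from 81.33% to 91.49%, 93.33% and 87.87% for a 237-nt exon. VAPB rose from 8.163% to 19.42% in R749H and 14.32% in E1126G, both well below its 56.09% in H1106Y. The 301-nt exon of the splicing factor gene TRA2A rose from 85.45% to 89.72%, 94.47% and 94.2%. With the Benjamini-Yekutieli adjustment the R749H calls of CACNA1C and TRA2A and the H1106Y call of CACNA1C did not pass.

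Falls called in every mutant, ranked in the same way, were led by APBA1, PROM1, MAGI1 (2 exons), RALGPS1 and BDNF-AS. MAGI1, a scaffold of cell junctions, had an 84-nt exon (chromosome 3, 65372818 to 65372901) at 38.8% in WT and at 13.46%, 11.54% and 5.724% in R749H, H1106Y and E1126G. Its 36-nt exon was at 43.65% in WT and at 22.96%, 9.653% and 21.76%. APBA1 (chromosome 9, 72073072 to 72073104) was at 84.68% in WT and at 50%, 30% and 34.48%. PROM1 (chromosome 4, 15981018 to 15981086) was at 68.66% and at 38.68%, 8.649% and 16.75%. RALGPS1, an exchange factor for Ral GTPases, had a 90-nt exon at 33.81% in WT and at 13.09%, 6.897% and 18.63%. BDNF-AS, antisense to the BDNF gene, went from 54.43% to 36.75%, 40.68% and 34.48%. The strand caveat of ZBED3-AS1 applies to it too, and its calls in H1106Y and E1126G did not pass with Benjamini-Yekutieli. Of these 12 exons TRA2A alone had the same exon in the RNA-seq tables, with another span.

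Other exons were called higher in R749H and lower in E1126G. They are given as a description, since the rule for naming them asked for opposite directions. A 108-nt exon of BTRC, an F-box protein of β-catenin turnover, was at 63.13% in WT, 79.05% in R749H and 48.84% in E1126G. A 78-nt exon of the same gene, measured over the same span of 125139 nt, was at 87.43%, 92.64% and 75.33%. An 84-nt exon of the kinase gene NEK1 was at 18.92%, 31.22% and 8.289%. Exons of EYA2, ATG10 and SOBP were above 93% in WT and moved by a few points. EYA2, a developmental phosphatase, was at 93.28%, 96.93% and 87.32%. ATG10, an autophagy enzyme, was at 94.51%, 97.41% and 90.92%. SOBP was at 93.29%, 97.06% and 90.84%. In H1106Y the 108-nt BTRC exon and the exons of NEK1, ATG10 and SOBP were called higher. The 78-nt BTRC exon was called lower there, at 67.53%, and EYA2 was not called. The spans of these 6 exons ran from 29477 to 176720 nt. With Benjamini-Yekutieli the R749H calls of EYA2 and the 78-nt BTRC exon and the H1106Y call of the 108-nt BTRC exon did not pass.

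**Figure D3:**
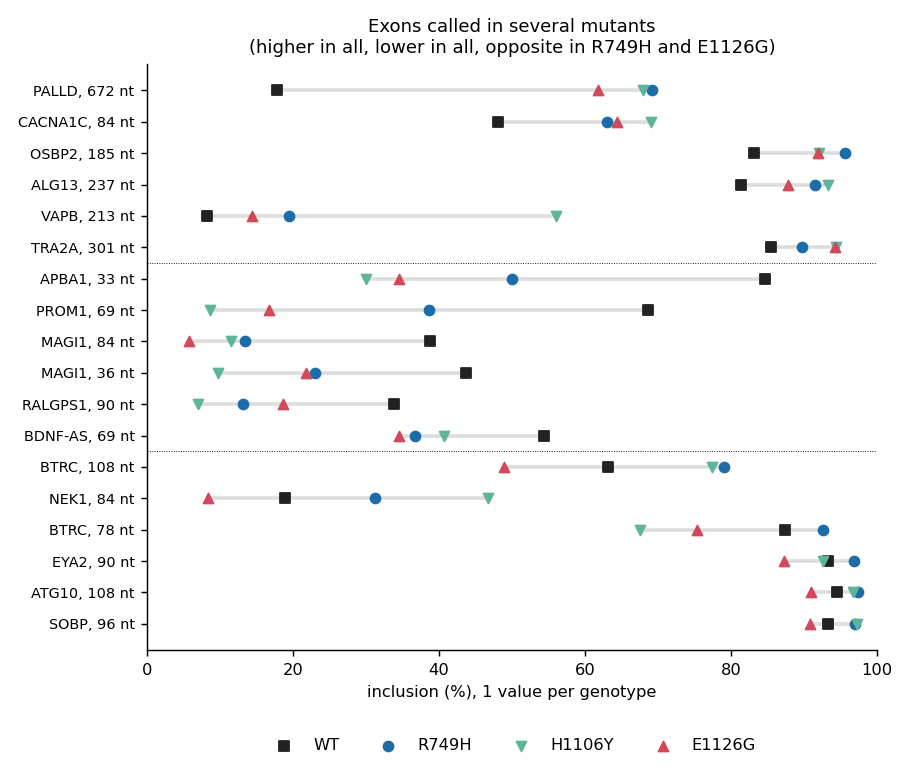
Inclusion (x axis, percent) in WT and the 3 mutants for the exons called in 1 direction in all mutants and for those called in opposite directions in R749H and E1126G (y axis, gene and exon length). Each point is the authors' value per genotype, with no error bar. PALLD runs from 17.84% in WT to between 61.76% and 69.23% in the mutants, and PROM1 from 68.66% to between 8.649% and 38.68%.

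The called members were also counted by skipped span, as a description with no test between span classes. In R749H, members with a span over 20 kb rose in 56 and fell in 19 of 179 cases. Members with a span of 10 to 20 kb rose in 13 and fell in 29 of 125, and those of 2 to 10 kb rose in 23 and fell in 42 of 200. Under 2 kb the counts were 14 and 4 of 38. The events with an RNA-seq row gave 94 and 53 of 340 over 20 kb, 83 and 60 of 329 at 10 to 20 kb, 163 and 213 of 777 at 2 to 10 kb, and 94 and 31 of 260 under 2 kb. Rises thus outnumbered falls at both ends of the span scale in both sets. At 10 to 20 kb the members gave more falls than rises and the others more rises than falls, and that difference was not tested. In H1106Y the members over 20 kb rose in 40 and fell in 47 of 151, and those of 10 to 20 kb rose in 13 and fell in 56 of 117. At 2 to 10 kb the counts were 30 and 72 of 179, and under 2 kb 4 and 8 of 31. The others in H1106Y gave 76 and 115 of 318 over 20 kb, 75 and 116 of 302 at 10 to 20 kb, 171 and 308 of 728 at 2 to 10 kb, and 82 and 69 of 244 under 2 kb. In E1126G the members over 20 kb rose in 23 and fell in 41 of 199, those of 10 to 20 kb in 8 and 36 of 130, and those of 2 to 10 kb in 16 and 69 of 208. Under 2 kb 10 rose and 8 fell of 46. The others in E1126G gave 30 and 126 of 347 over 20 kb, 45 and 114 of 331 at 10 to 20 kb, 137 and 313 of 785 at 2 to 10 kb, and 52 and 70 of 266 under 2 kb.

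**Figure D4:**
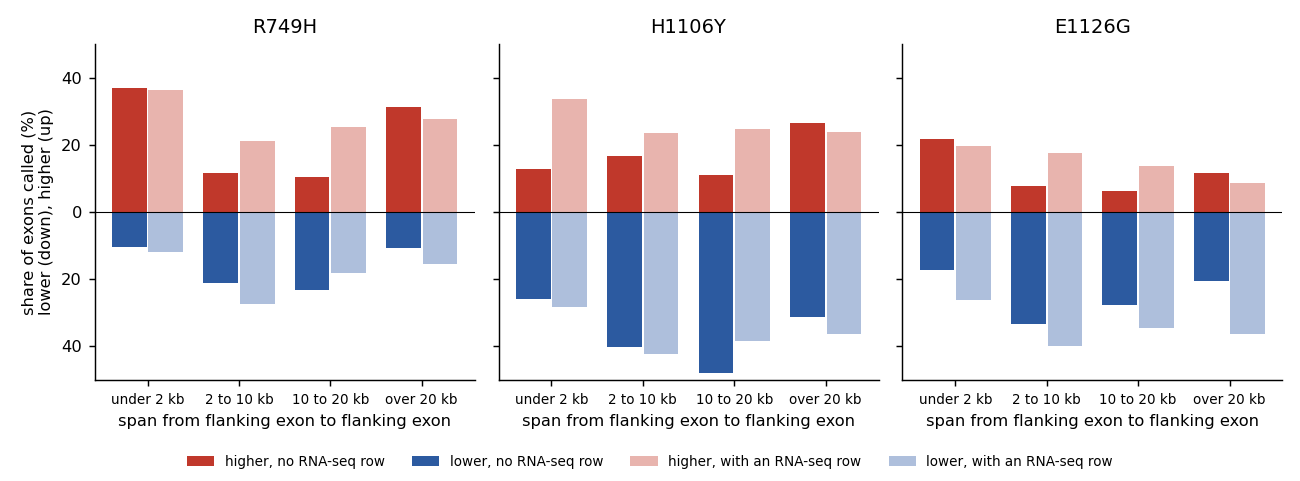
Share of exons called higher (bars above 0) or lower (bars below 0) in each mutant (y axis, percent), by length of the skipped span (x axis). Darker bars are the exons without an RNA-seq row and paler bars those with one. In R749H the darker bars are 31.3% up and 10.6% down of 179 exons over 20 kb, and 10.4% up and 23.2% down of 125 at 10 to 20 kb.

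Called members were counted by exon length too, beside the events with an RNA-seq row and with no test between length classes. None of the 15 microexons was called higher in any mutant. Called lower were 4 of 15 in R749H, 5 of 12 in H1106Y and 6 of 13 in E1126G. Among the others of this length 8 rose and 20 fell of 41 in R749H, 10 and 18 of 40 in H1106Y, and 6 and 27 of 42 in E1126G. Among members of 28 to 50 nt, 8 rose and 16 fell of 65 in R749H, 8 and 24 of 55 in H1106Y, and 5 and 25 of 72 in E1126G. The others gave 37 and 49 of 196, 39 and 77 of 187, and 14 and 101 of 199. Members of 300 nt or more rose in 9 and fell in 2 of 24 cases in R749H, rose in 10 and fell in 4 of 21 in H1106Y, and rose in 4 and fell in 6 of 24 in E1126G. The others of this length gave 31 and 11 of 83, 23 and 23 of 76, and 24 and 23 of 86. Falls thus outnumbered rises among the short exons of both sets, and rises outnumbered falls among the long ones in R749H. Over all events 20.1%, 38.2% and 33.6% fell in R749H, H1106Y and E1126G. Microexon members fell in 26.7%, 41.7% and 46.2% of cases, and members of 28 to 50 nt in 24.6%, 43.6% and 34.7%. In H1106Y both classes were near the share of all events, as was the 28 to 50 nt class in E1126G. Members of 300 nt or more rose in 37.5% in R749H, against 24% of all events. Members whose length is a multiple of 3 were called in 41.1% of cases in R749H, 55.7% in H1106Y and 43.2% in E1126G, against 32.6%, 57.3% and 28.4% of the rest. Over all events the shares were 46.3%, 62.7% and 51%, against 41.3%, 60.9% and 43%.

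Several exons were measured in 63 of the genes. FAS, the death receptor, had 3, and RNA-seq did not list this gene. Its 63-nt exon (chromosome 10, 90770510 to 90770572) was at 88.95% in WT and fell to 70.89% in R749H (adjusted p = 1.5e-22) and 71.01% in H1106Y (adjusted p = 1.2e-25). In E1126G it was at 86.84% (adjusted p = 0.023). The 25-nt exon of FAS was at 88.96% in WT and fell to 64.27% in H1106Y (adjusted p = 6.6e-13). It was at 93.03% in R749H and 92.78% in E1126G with no call. The 109-nt exon was at 97.86% in WT and rose to 99.45% in R749H (adjusted p = 0.03).

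CACNA1C had 4 exons. The 33-nt exon, described above for E1126G, also fell in R749H, to 47.47% (adjusted p = 7.9e-05), and was at 77.78% in H1106Y with no call. The 84-nt exon at 2743463 rose in all 3 mutants. The other 84-nt exon, at 2742795, was at 29% in WT, 14.29% in R749H and 19.05% in E1126G, and neither mutant passed the test. In R749H and E1126G the 33-nt exon and the 84-nt exon at 2743463 were called in opposite directions. Each of these 2 exons is a flanking exon of the other's event. Their events share a junction and are not separate measurements.

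MYB, a transcription factor gene of blood cell progenitors, had 5 rows. Its 72-nt exon was at 95.41% in WT and fell to 83.74% in E1126G (adjusted p = 1.5e-29) and 90.04% in H1106Y (adjusted p = 0.00012). A 183-nt exon, given with 2 spans, was at 6.452% and 3.81% in WT. With the shorter span it rose to 40% in H1106Y (adjusted p = 0.014) and 39.06% in E1126G (adjusted p = 0.001). With the longer span it was at 23.53% and 28.41%, and the 598-nt exon that shares this span had the same values. FOXP2, a forkhead transcription factor, had a 75-nt exon that rose from 13.69% to 30.18% in R749H (adjusted p = 4.5e-07). Its 202-nt exon fell from 91.87% to 83.97% in R749H (adjusted p = 1.3e-05) and 80.09% in H1106Y (adjusted p = 5.8e-06).

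BRCA1, the homologous repair gene, had a 3426-nt exon at 98.27% in WT, 99.66% in H1106Y (adjusted p = 2e-06) and 97.04% in E1126G (adjusted p = 0.0011). A 117-nt exon that shares its end and its span was at 94.52%, 98.24% and 91.16%. PBRM1, a subunit of the PBAF remodelling complex, had a 96-nt exon that fell from 88.44% to 75% in H1106Y (adjusted p = 4.4e-05). Its 45-nt exon was at 1.712% in WT and fell to 0.7921% in E1126G (adjusted p = 7.9e-09). GTPBP10, a mitochondrial GTPase, had a 145-nt exon at 96.51% in WT that fell to 92.94% in R749H (adjusted p = 0.0012), 94.05% in H1106Y (adjusted p = 0.01) and 91.04% in E1126G (adjusted p = 4.9e-08). Its 92-nt exon, at 99.62% in WT, was at 99.83% in R749H (adjusted p = 0.0075), 99.86% in H1106Y (adjusted p = 0.0019) and 99.78% in E1126G (adjusted p = 0.017). By their positions and spans (17605 and 2076 nt), each of these 2 GTPBP10 exons appears to flank the other's event. Their opposite calls would then share a junction and not be separate measurements. The 4 rows of SORBS2 gave 1 call, a fall of the 50-nt exon from 71.49% to 53.85% in E1126G (adjusted p = 0.046). The 3 rows of TET2 fell in H1106Y, from 97.88% to 92.71% for a pair of rows with the same values (adjusted p = 0.00022) and from 98.11% to 93.44% for the 91-nt exon (adjusted p = 0.028).

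The members were also grouped by 9 lists of genes. Each count below stands beside that of the list's exons with an RNA-seq row, and the shares called among all events are the 44.1%, 61.9% and 47.5% given above for R749H, H1106Y and E1126G. No list was tested. Among the called exons of the cytoskeleton and muscle list falls outnumbered rises. Of its 24 members, 1 rose and 7 fell of 20 in R749H, 3 rose and 10 fell of 19 in H1106Y, and 3 rose and 11 fell of 22 in E1126G. The shares called were 40%, 68.4% and 63.6%, and the median log2 changes were -0.02, -1.57 and -0.95 against 0.05, -0.33 and -0.37 for all events. The list's other exons gave 10 rises and 23 falls of 55, 10 and 26 of 52, and 3 and 36 of 59, with 60%, 69.2% and 66.1% called. A 42-nt exon of KIF1B, a kinesin motor, fell from 96.25% to 50% in H1106Y (adjusted p = 0.00081) and 76.47% in E1126G (adjusted p = 0.00077). A 39-nt exon of MYO6, the pointed-end directed myosin, fell from 79.95% to 68.83% in R749H (adjusted p = 0.022) and 45.86% in H1106Y (adjusted p = 2.5e-12). PALLD and DYSF were among the rises.

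In transcription and chromatin genes, of 33 members, 10 rose and 3 fell of 31 in R749H, 4 rose and 9 fell of 23 in H1106Y, and 8 rose and 10 fell of 33 in E1126G. The share of rises in R749H was 10 of 31, beside 24% of all events and 21 of 69 of the list's other exons. Those others fell in 14 of 69 there, and gave 23 rises and 19 falls of 62 in H1106Y and 14 and 25 of 67 in E1126G. The members' median log2 changes were 0.59, -0.38 and -0.13. A 54-nt exon of NFAT5, the transcription factor of the osmotic stress response, was at 57.35% in WT. It rose to 85.32% in R749H (adjusted p = 1.1e-21) and 86.12% in H1106Y (adjusted p = 1.7e-19), and was at 54.49% in E1126G with no call. An exon of PHF21A, a histone reader, fell from 94.25% to 73.44% in H1106Y (adjusted p = 6.5e-05). Rows of 23 and 259 nt in this gene have the same values and stand for 1 measurement.

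In RNA processing genes, 3 rose and 0 fell of 12 in R749H, 4 rose and 3 fell of 10 in H1106Y, and 2 rose and 2 fell of 12 in E1126G. The list's other exons gave 22 and 17 of 71, 22 and 26 of 68, and 19 and 22 of 72. A 56-nt exon of UPF3A, a factor of nonsense-mediated decay, fell from 76.64% to 40.39% in H1106Y (adjusted p = 6.3e-16) and 63.64% in E1126G (adjusted p = 0.0028). A 40-nt exon of the splicing regulator gene RBFOX2 fell from 97.88% to 84.63% in H1106Y (adjusted p = 9.2e-31). A 36-nt exon of MBNL2, another splicing regulator, rose from 47.8% to 77.2% in H1106Y (adjusted p = 0.0017).

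Among kinases, phosphatases and GTPase signalling genes, 4 rose and 4 fell of 12 in R749H, 4 and 4 of 13 in H1106Y, and 2 and 6 of 15 in E1126G, with ITSN1, PKN2, RGS6 and NEK1 as described. The other exons of these genes gave 14 and 22 of 65, 18 and 27 of 61, and 10 and 32 of 68. In apoptosis and cell cycle genes, 2 rose and 1 fell of 15 in R749H, 4 and 5 of 15 in H1106Y, and 1 and 5 of 15 in E1126G. The others there gave 13 and 6 of 47, 14 and 16 of 45, and 8 and 13 of 48. A 150-nt exon of MDM4, an inhibitor of p53, fell from 97.06% to 57.89% in H1106Y (adjusted p = 1.7e-05) and was at 96.63% in R749H with no call. In synapse, axon and cell adhesion genes, 0 rose and 2 fell of 7 in R749H, 1 and 3 of 5 in H1106Y, and 1 and 2 of 8 in E1126G. Their other exons gave 4 and 16 of 34, 5 and 11 of 33, and 3 and 16 of 36. A 69-nt exon of CADPS, a gene of dense-core vesicle release, rose from 0.6693% to 5.882% in H1106Y (adjusted p = 0.0015). A 252-nt exon of RIMS2, a presynaptic active zone gene, rose from 58.25% to 66.22% in E1126G (adjusted p = 0.0028).

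In ion channel and transmitter receptor genes, 1 rose and 2 fell of 5 in R749H, 1 and 1 of 4 in H1106Y, and 1 and 3 of 7 in E1126G. Their other exons gave 0 and 2 of 5, 0 and 1 of 5, and 2 and 0 of 6. A 36-nt exon of the calcium pump gene ATP2B4 was called lower in every mutant, with 99.85% in WT and 99.5%, 99.17% and 99.06% in R749H, H1106Y and E1126G. A 45-nt exon of ITPR1, a calcium release channel, fell from 92.18% to 87.56% in E1126G (adjusted p = 0.027). In vesicle traffic and endocytosis genes, 2 rose and 1 fell of 4 in R749H, 1 and 1 of 2 in H1106Y, and 0 and 1 of 8 in E1126G. Their other exons gave 9 and 14 of 44, 9 and 22 of 42, and 5 and 16 of 42. RAB6A was the fall in each mutant among the members. A 39-nt exon of the mitochondrial fission gene DNM1L rose from 0.2071% to 1.061% in H1106Y (adjusted p = 4.4e-28). A 214-nt exon of RABGAP1L rose from 1.12% to 3.375% in R749H (adjusted p = 0.0091).

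In immune and blood cell genes, 1 rose and 1 fell of 5 in R749H, 0 and 2 of 3 in H1106Y, and 0 and 2 of 4 in E1126G. Their other exons gave 1 and 0 of 5, 4 and 2 of 6, and 0 and 1 of 6. A 33-nt exon of MALT1, a signalling protease of lymphocytes (chromosome 18, 56378153 to 56378185), fell from 99.61% to 97.56% in R749H (adjusted p = 3.9e-11), 74.13% in H1106Y (adjusted p = 5.1e-109) and 96.37% in E1126G (adjusted p = 3.5e-24). A 239-nt exon of the cytokine gene TNFSF12 fell from 18.57% to 5.069% in H1106Y (adjusted p = 0.0015). BCL6, a repressor of germinal centre B cells, rose from 54.35% to 83.78% in R749H (adjusted p = 0.049), and IRAK4, a kinase of innate signalling, fell from 30.77% to 12.68% in E1126G (adjusted p = 0.03).

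For 33 members the same exon stood in the RNA-seq tables with another span or another gene identifier, which gave 37 pairs of rows. Their median WT inclusion was 85.45% on RASL-seq and 70.59% on RNA-seq, and the median absolute difference was 12.51 points. RASL-seq was the lower of the pair in 15 of 37. The flanking exons differ between the rows of a pair, so these are different skipping events of 1 exon. The TRA2A exon was at 85.45% in WT on RASL-seq, over a span of 9340 nt, and at 34.55% on RNA-seq, over a span of 9948 nt. It rose on both platforms. On RNA-seq it reached 56.12% in R749H (adjusted p = 0.021) and 79.35% in E1126G (adjusted p = 4.3e-09). A 73-nt exon of TCF7L2, a transcription factor of Wnt signalling (chromosome 10, 114919679 to 114919751), fell in R749H on both platforms. It went from 23.84% to 10.67% on RASL-seq (adjusted p = 1.3e-08) and from 59.26% to 3.571% on RNA-seq (adjusted p = 0.00025). Another 73-nt exon of TCF7L2, at 114920378, was called on RNA-seq alone. There it fell from 63.33% to 10% in R749H (adjusted p = 0.00088). On RASL-seq it was at 12.49% in WT and 13.79% in R749H, a change of the opposite sign with no call.

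Over all such pairs with a change on both platforms, RASL-seq called 12 of 28 in R749H and RNA-seq called 4. Both called 2, TRA2A and the TCF7L2 exon at 114919679, in the same direction. In E1126G RASL-seq called 16 of 30 and RNA-seq called 1, which is TRA2A. Of the pairs called on RASL-seq, the RNA-seq change had the same sign in 9 of 12 in R749H and in 11 of 16 in E1126G. The pairs are not all separate measurements. The RASL-seq rows of ANXA2, SLMAP and FBXW11 each stand in several pairs and are repeated in these counts and in the medians above. The RNA-seq changes paired with FBXW11 in R749H and with SLMAP in E1126G had both signs. The libraries of the 2 platforms are labelled as separate samples, with 3 against 2 per genotype, and the depth behind each pair is not given.

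**Figure D5:**
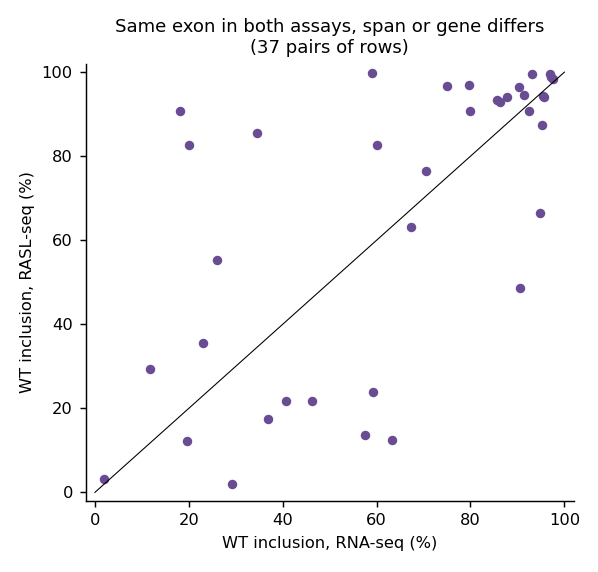
WT inclusion of the 37 row pairs in which a RASL-seq exon without its own RNA-seq row is listed by RNA-seq with another span or gene identifier (x axis RNA-seq, y axis RASL-seq, both percent), with the line of equality. The points scatter widely around the line, with 15 of 37 below it and a median absolute difference of 12.51 points.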

How the data were processed

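RASL-seq libraries (3 per genotype) and RNA-seq libraries (2 each for WT, R749H and E1126G) were made from polyadenylated RNA. RNA-seq reads were mapped with TopHat 1.4.1, per the labels' protocols, and the submitters' processing notes name Bowtie 0.12.7, edgeR 3.7.17 and GRCh37 (hg19), with no role for each. The 5 exon tables deposited by the authors give, per event, the ratio of included to skipped form in WT as a natural log, its change in the mutant as a log2 value, and an unadjusted p-value. No label or header names the test behind the deposited p-values. The table coded C4 was taken as R749H from the labels. The natural log scale of the deposited WT column was checked on the values. Ratios formed from it were simple fractions for 76.8% to 79.1% of members, against 0.172% to 0.369% with base 2 (denominators up to 300, relative tolerance 1e-09). With the natural log 58% to 59.1% of the others gave simple fractions. A simple fraction can come from few reads, and the reads behind the 2 sets could not be compared. The log2 scale and the sign of the deposited change column were checked in the same way, with 79.1% to 83.9% of mutant ratios simple fractions and 7.2% to 10.3% with the sign turned.

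Rows were matched between tables on 6 fields. Inclusion was 100 times the ratio over 1 plus the ratio. The p-values were adjusted by Benjamini-Hochberg over all events of each table, with a threshold of 0.05. The implied standard error was the absolute log2 change over the normal quantile of the deposited p-value. Whether the deposited p-values take in the spread between libraries is not stated. The adjustment and counting were tested on simulated data. Python 3.11.15, numpy 2.4.6, pandas 2.3.3, scipy 1.17.1 and matplotlib 3.10.9 were used.

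Named exons, each counted once, were the 8 largest called increases and decreases per mutant in percentage points, 6 per direction called in all 3 mutants, up to 6 called in opposite directions in R749H and E1126G, and up to 4 called per gene list. Some of the exons this rule names are not reported here. The exons of genes with several members and the exon pairs across platforms were chosen after their values were seen. The members and the 9 lists were chosen with earlier results of these data known. Gene symbols came from the identifiers in the tables. Retained intron tables and GRO-seq were not used here, and no exon sequence is printed.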

Additional observations from a re-analysis of the deposited data

How the results depend on the processing

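The counts and medians were recomputed under other thresholds, adjustments and definitions of the members, some of them chosen after seeing the data: rows with the same values taken once, members whose exon is listed by RNA-seq left out, members in all 3 tables, and a minimum of 10 points. Of 104 such values, 77 stayed within 1.5 times of the reported count or close to the reported median, and 27 did not. At an adjusted p under 0.01, R749H gave 129 called members, 65 of them higher. With the Benjamini-Yekutieli adjustment R749H gave 113, with 52 higher and 61 lower. With WT inclusion limited to 5% to 95%, called, higher and lower members numbered 99, 55 and 44 in R749H, 117, 42 and 75 in H1106Y, and 105, 31 and 74 in E1126G, and the H1106Y median log2 change was -0.3977. With at least 10 points they numbered 62, 34 and 28 in R749H, 120, 37 and 83 in H1106Y, and 66, 19 and 47 in E1126G. Both restrictions leave fewer exons by construction. Relative to the median of all events, the members' median log2 change was -0.009317 in R749H, which turns its sign, -0.2093 in H1106Y and -0.003013 in E1126G. Of 134 named calls in 71 distinct exons, 29 were lost at 0.01 and 32 with Benjamini-Yekutieli. With directions taken around the median of all events, the counts of higher and lower members were 106 and 94 in R749H, 87 and 183 in H1106Y, and 58 and 153 in E1126G. No paired analysis was possible because the exon tables hold no values per library, and for the same reason no library could be left out in turn. The depth behind each event is not given, so a change that was not called may be below what these libraries could detect.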

Other observations

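Rows of different exons sometimes carry the same WT and mutant values, as for ARID4A, DYNC1I2, PHF21A, TET2, MYB and C11orf54. Members sharing both values with another row numbered 14 of 542 in R749H, 16 of 478 in H1106Y and 14 of 583 in E1126G. Exons of 45 and 207 nt in ARID4A, a chromatin gene, were both at 99.32% in WT and 99.71% in R749H. Exons of 91 and 145 nt in DYNC1I2, a dynein intermediate chain, were both at 99.92% in WT and 99.68% in H1106Y.

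The calcium and potassium channel genes also held exons with a table entry for E1126G alone. A 174-nt exon of KCNMA1, the large-conductance potassium channel, was at 35.71% in WT and 55.56% in E1126G with no call. A 75-nt exon of CACNA1C was at 9.877% and 16.18% with no call. Over all members, 65 were listed for E1126G alone, 36 for R749H alone and 13 for H1106Y alone.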
